A study of Homo sapiens with 6 samples.

Results

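The natriuretic peptide system of the heart was described through 7 genes, chosen by their symbols: the peptide precursors NPPA, NPPB and NPPC, the receptors NPR1, NPR2 and NPR3, and CORIN, the protease that activates the NPPA product. All 7 were found among the 35793 genes listed. Messenger RNA had been measured by sequencing in cardiomyocytes grown from WTC11, an established line of human induced pluripotent stem cells, and collected on day 15 of differentiation. The wild-type group was unedited WTC11, and the knockout group was a WTC11 derivative in which CRISPR/Cas9 had disrupted both STK25 alleles. Neither group received a treatment, and both were kept in a medium supplemented with B27. Each group had 3 biological replicates, and the knockout was 1 derived line, so the edit and any other difference between the lines cannot be told apart.

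Natriuretic peptides are hormones that the heart makes as longer precursors and releases when its wall is stretched. NPPA encodes atrial natriuretic peptide (ANP), which corin cuts from its precursor at the cell surface. NPPB encodes B-type natriuretic peptide (BNP), whose precursor is cut by proteases such as furin, and NPPC encodes C-type natriuretic peptide (CNP). NPR1 binds ANP and BNP and NPR2 binds CNP, and both make the messenger cGMP; NPR3 lacks that activity and removes the peptides. NPPA is expressed in atria and ventricles of the embryonic heart and becomes largely atrial after birth, while NPPB is used as a marker of wall stress.

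The 3 peptides share a ring closed between a pair of cysteines, and the stretches that encode it in NPPB and NPPC are shown because the ring is what makes these peptides a family. They are coding sequence of GENCODE 29 transcripts on GRCh38, both on the minus strand and in exon 2 of 3, at chr1:11858218-11858268 for NPPB and chr2:231925428-231925478 for NPPC. Capitals mark the codons of the first and last cysteine.
NPPB: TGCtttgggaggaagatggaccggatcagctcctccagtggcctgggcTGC
NPPC: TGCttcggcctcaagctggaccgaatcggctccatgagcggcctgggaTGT
Of the 51 bases, 37 were identical between NPPB and NPPC. The precursor genes had no run of 31 bases in common: none of the 1119 different 31-base words of NPPA transcripts, the 664 of NPPB or the 1040 of NPPC occurred on the same strand in a transcript of another gene. NPR1 and NPR2 had 8 such words in common, and 201 of 10165 words of CORIN (1.98%) recurred in other genes. On the opposite strand 222 words of NPPA (19.8%) occurred in CLCN6, which overlaps it, and 299 words of NPR2 (7.58%) occurred in SPAG8.

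NPPA and NPPB are neighbours on chromosome 1. In GENCODE 29 NPPA (ENSG00000175206.10) lies on the minus strand from 11845709 to 11848345 and NPPB (ENSG00000120937.8) on the same strand from 11857464 to 11858931, with 9118 bases between them. CORIN (ENSG00000145244.11) is on chromosome 4 from 47593998 to 47838106, NPPC (ENSG00000163273.3) on chromosome 2 from 231921820 to 231926403, NPR1 (ENSG00000169418.9) on chromosome 1 from 153678637 to 153693992, NPR2 (ENSG00000159899.14) on chromosome 9 from 35792154 to 35809732 and NPR3 (ENSG00000113389.15) on chromosome 5 from 32689070 to 32791724. All are annotated as protein-coding.

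A short stretch before the RefSeq start of NPPA is shown because it holds the motifs of factors known to act on this gene. RefSeq promoter windows on GRCh38.p14 matched 6 of the 7 members, in 7 windows, NPPB being the member without one. The bases from -107 to -81 before the RefSeq start of NPPA, at chr1:11847864-11847890 on the minus strand, hold the NKX2-5 motif AAGTG on each strand and the GATA motif GATA on the opposite strand, in capitals as they read on the gene's own strand. GENCODE 29 places the start of NPPA farther out, at 11848345, so the stretch lies inside the gene as annotated there. All 250 bases of the window before the RefSeq start also lie opposite untranslated exon sequence of CLCN6.
NPPA upstream: CACTTggcagcttTATCactgcAAGTG
Within 250 bases before the start, both strands counted, NPPA had 2 matches of AAGTG, 2 of GATA and 1 of TATAAA, with no overlap between motifs. AAGTG occurred in 37.6% of 35116 such windows, GATA in 45.6% and TATAAA in 10.7%. The CORIN window held none of these 3, nor AGGTGT (T-box), CACGTG (E-box) or the CArG box, which were found in 9.57%, 6.34% and 1.16% of all windows.

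The libraries held from 22443904 to 53224112 reads assigned to genes, and 15536 genes with a mean of at least 10 normalized counts (reads divided by 1 size factor per library) were tested. STK25, the edited gene, was looked at as a check of the labels. It had 8874, 6774 and 8710 normalized counts in wild-type replicates 1, 2 and 3 and 3906, 3434 and 3820 in the knockout. The groups did not overlap, as in 33.4% of all genes tested (limma log2 fold change -1.12, SE 0.19, Benjamini-Hochberg adjusted p = 0.00903). The limma adjusted p was 0.0611 without wild-type replicate 1 and 0.0684 with the replicate number as a block. Wild-type replicate 2 and knockout replicate 1 stood apart by transcript length. The median deviation of genes with transcripts under 1 kb from their mean over all libraries was 0.52 and 0.75 on the log2 scale in these 2, and from -0.39 to -0.04 in the others. The cardiomyocyte markers were high in every library: the 9 listed, with TNNT2, ACTN2 and TTN among them, summed to between 884526 and 934755 normalized counts in the wild type and between 1097060 and 1223880 in the knockout. Of these 9, 0 were called, and they moved both ways. MYH6 was lower in every knockout library (means 142436 and 62131, limma adjusted p = 0.0531). The means of TNNI1 and RYR2 were lower too, and those of the other markers were higher. All 4 smooth muscle markers (MYH11, ACTA2, TAGLN, CNN1) rose, and their sums were 77993 to 87796 in the wild type against 486822 to 536050 in the knockout. The 7 endothelial markers summed to 174 to 478 and 418 to 584, which overlap. Of these CDH5 and TIE1 had at most 3 reads in every library, KDR had 89 to 536 reads, PECAM1 17 to 91 and EMCN 14 to 73. In normalized counts EMCN was higher in all knockout libraries but did not pass (limma adjusted p = 0.156). Of 7 ventricular markers 5 fell, and of 10 atrial markers 2 rose and 3 fell, against 6.79% of all genes tested lower and 5.97% higher. Among tested markers, 1 of 5 nodal ones rose and 1 fell, 3 of 8 fibroblast ones rose and 1 fell, 3 of 4 neural ones and 1 of 5 epicardial ones rose, and 1 of 3 endoderm ones fell. The sums did not overlap for the nodal (3458 to 4225 and 9203 to 11227), neural (40.8 to 128 and 459 to 818), epicardial (237 to 326 and 568 to 852) and endoderm (1651 to 3003 and 1191 to 1235) lists. Nor did they overlap for the atrial (549227 to 918404 and 1023890 to 2671050) and pluripotency (329 to 418 and 468 to 492) lists. Of 3 tested pluripotency markers, 0 were called. The sums overlapped for the fibroblast list (12950 to 26529 and 8205 to 16655) and the ventricular list (149705 to 191210 and 141052 to 242474). MYL7 made up most of the atrial sums (means 541523 and 1481020) and MYL3 most of the ventricular sums (means 117224 and 174382). Neither gene was called (limma adjusted p = 0.114 and 0.306). These 2 sums therefore mostly follow 1 gene each, and not the called markers, of which 5 ventricular ones fell. The part of these differences in the results below was not tested. In such bulk samples, fewer cells of a type and less RNA per cell cannot be told apart.

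CORIN and NPPA fell in the knockout, NPPB did not fall with them, and the receptors and NPPC stayed at low levels in both genotypes. CORIN mRNA was reduced to 0.957% of its wild-type mean and NPPA to 19.6%, while the NPPB mean was 172% of wild type without passing the test. Of the 5 members tested, 2 had an adjusted p under 0.05, both lower, against 12.8% of all genes tested in either direction, 6.79% lower and 5.97% higher. DESeq2 on recovered reads called the same 2 members, against 20.7% of all genes. The median log2 fold change of the 5 was 0.23, and that of all genes 0.01. NPPC and NPR3 were below the filter on low values.

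**Figure D1:**
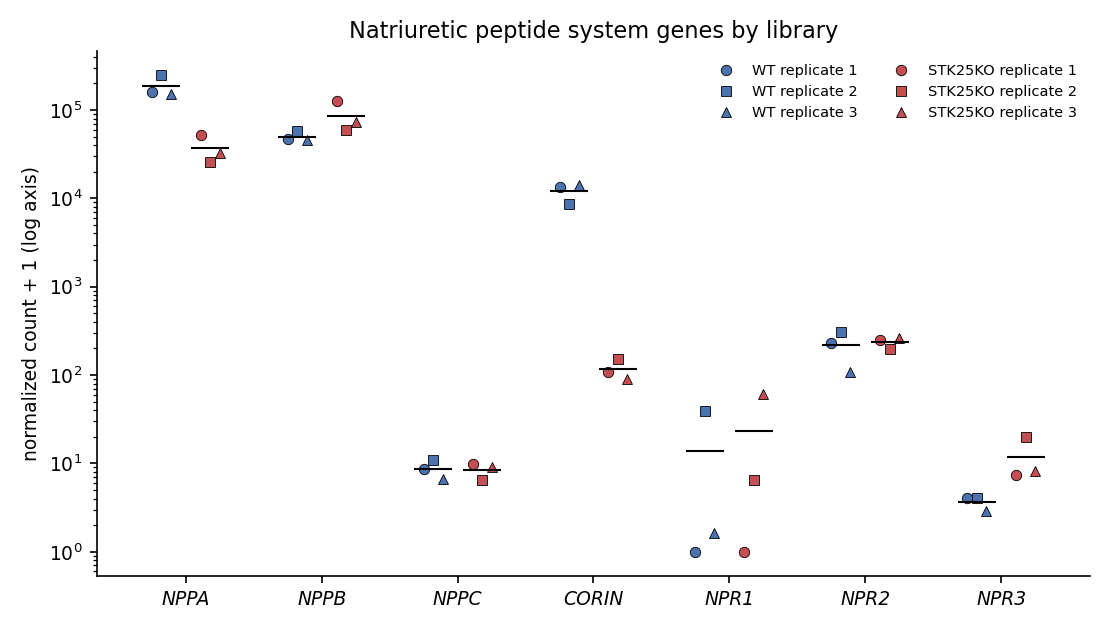
Normalized count plus 1 on a log axis for the 7 genes in each library (blue, wild type; red, knockout; symbol shape, replicate number; bar, mean of 3). The CORIN points of the 2 genotypes lie about 2 decades apart, NPPA is lower in all 3 knockout libraries, and NPPB is higher in them.

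NPPA was the more abundant of the 2 cardiac peptides in the wild type. It had 160904, 251229 and 151985 normalized counts in wild-type replicates 1, 2 and 3, and 52069, 25528 and 32744 in knockout replicates 1, 2 and 3. Every knockout library lay below every wild-type library, and the highest value of each genotype came from the library that stood apart by transcript length. The means were 188039 ± 54905 and 36780 ± 13723 (SD, n = 3 each). The log2 fold change was -2.38 (SE 0.34; 95% confidence interval -3.18 to -1.58; limma adjusted p = 0.00463), and 600 of the tested genes (3.86%) had a value this low or lower. It was between -2.76 and -2.15 over 19 alternatives, each with an adjusted p under 0.05, the highest being 0.0368. An exact two-sided permutation test of 3 against 3 gave p = 0.1, the smallest this design allows. Whether the counting used strand is not given in the sources used here, so reads of NPPA and of the overlapping CLCN6 may not have been told apart in the shared stretch. CLCN6, a chloride transporter, had 1117 ± 412 normalized counts in the wild type and 1409 ± 527 in the knockout (SD, n = 3 each).

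NPPB behaved differently. Its normalized counts were 47383, 57553 and 45219 in the wild type and 126209, 58701 and 74031 in the knockout. The lowest knockout library was above the highest wild-type library by a small margin, and knockout replicate 1 was far above the other 2. As for NPPA, the highest library of each genotype was the one that stood apart by transcript length, and the longest transcripts of NPPA and NPPB have 855 and 694 bases. Groups without overlap were seen in 33.4% of all genes tested. The means were 50052 ± 6586 and 86314 ± 35391 (SD, n = 3 each), with a log2 fold change of 0.72 (SE 0.32; 95% confidence interval -0.02 to 1.46; limma adjusted p = 0.195). The value was 0.41 without knockout replicate 1. With wild-type replicate 2 and knockout replicate 1 both left out it was 0.51 with a limma adjusted p of 0.0177, and with trends over length and GC content taken out library by library it was 0.73 with 0.0344. It did not pass under any of the other 17 alternatives. The 2 fits in which it passed called 4706 and 2797 genes in all, against 1982 in the main fit.

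Because both mRNAs are short and were measured in the same libraries, their ratio was compared directly. NPPA counts were 3.40, 4.37 and 3.36 times those of NPPB in wild-type replicates 1, 2 and 3, and 0.413, 0.435 and 0.442 times in the knockout. The knockout ratios were close to each other, knockout replicate 1 included, and each was well under the lowest wild-type ratio. On the log2 scale the mean ratio was 1.88 ± 0.21 in the wild type and -1.22 ± 0.05 in the knockout (SD, n = 3 each). The difference of -3.10 is an 8.56-fold change, and it stayed between -3.16 and -2.97 when any 1 library was left out. The exact two-sided permutation test gave p = 0.1, the smallest this design allows, or 0.15 after adjustment over 6 ratios.

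Relative to TNNT2, which encodes cardiac troponin T, the 2 peptides also parted. The NPPA to TNNT2 ratio was 0.695, 0.930 and 0.734 in the wild type and 0.145, 0.113 and 0.105 in the knockout, a log2 difference of -2.70 (exact two-sided permutation p = 0.1, adjusted 0.15). The NPPB to TNNT2 ratio was 0.205, 0.213 and 0.218 in the wild type and 0.351, 0.259 and 0.237 in the knockout, a log2 difference of 0.39 (exact two-sided permutation p = 0.1, adjusted 0.15). Thus the NPPA ratio lay lower and the NPPB ratio higher in every knockout library, the second by much less. Together NPPA and NPPB took 0.662 ± 0.112% of all reads in the wild type and 0.277 ± 0.073% in the knockout (SD, n = 3 each).

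**Figure D2:**
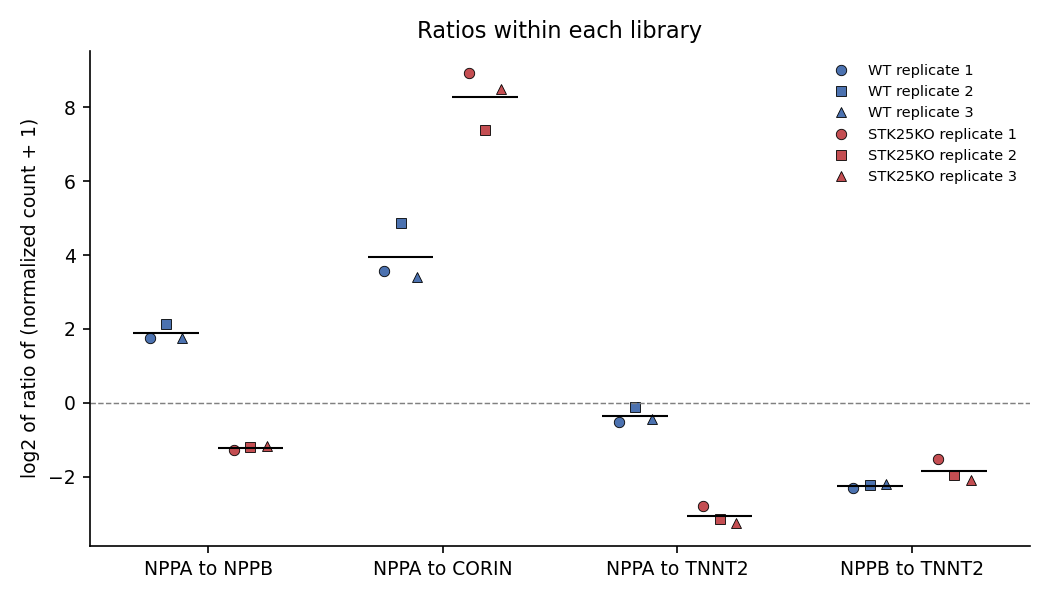
Log2 of the ratio of normalized counts (each plus 1) within each library for 4 pairs of genes (blue, wild type; red, knockout; symbol shape, replicate number; bar, mean of 3). NPPA to NPPB is above 0 in the 3 wild-type libraries and near -1.2 in the 3 knockout libraries.

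Per kilobase of exon sequence the order of the 2 peptides was inverted between genotypes. In the wild type NPPA was at 167892 ± 49023 normalized counts per kilobase and NPPB at 72120 ± 9490, and in the knockout NPPA was at 32840 ± 12253 and NPPB at 124371 ± 50995 (SD, n = 3 each). In neither genotype did the per-kilobase values of the 2 genes overlap. Among 33873 genes with a length, NPPA ranked 3, 5 and 4 in wild-type replicates 1, 2 and 3 and 59, 51 and 50 in the knockout, while NPPB ranked 13, 16 and 12 and then 8, 11 and 9. With the length of the longest transcript in place of all exons, NPPA was at 219929 ± 64217 and 43018 ± 16050 per kilobase (SD, n = 3 each), which left that order as it was.

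CORIN, a membrane-bound serine protease of cardiomyocytes, showed the largest difference of the 7. It had 13561, 8625 and 14312 normalized counts in the wild type and 107, 153 and 89.8 in the knockout. Every wild-type library was far above every knockout library. In reads, the knockout libraries held 84, 137 and 101, so a low number was assigned to the gene in each. Whether some of them came from stretches shared with other genes (1.98% of its 31-base words on the same strand) was not tested. The means were 12166 ± 3089 and 116 ± 32.6 (SD, n = 3 each), a 105-fold difference. The log2 fold change was -6.70 (SE 0.29; limma adjusted p = 5.66e-05), the 32nd lowest of all genes tested and the 5th smallest p. Over 19 alternatives it ran from -6.98 to -6.53, all past the threshold, the highest adjusted p being 0.00162.

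The substrate and its protease were both lower but by unequal amounts. NPPA counts were 11.9, 29.1 and 10.6 times those of CORIN in the wild type and 483, 166 and 361 times in the knockout. The log2 difference of this ratio was 4.32, or 19.9-fold (exact two-sided permutation p = 0.1, adjusted 0.15). The wild-type and knockout ratios did not overlap.

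**Figure D3:**
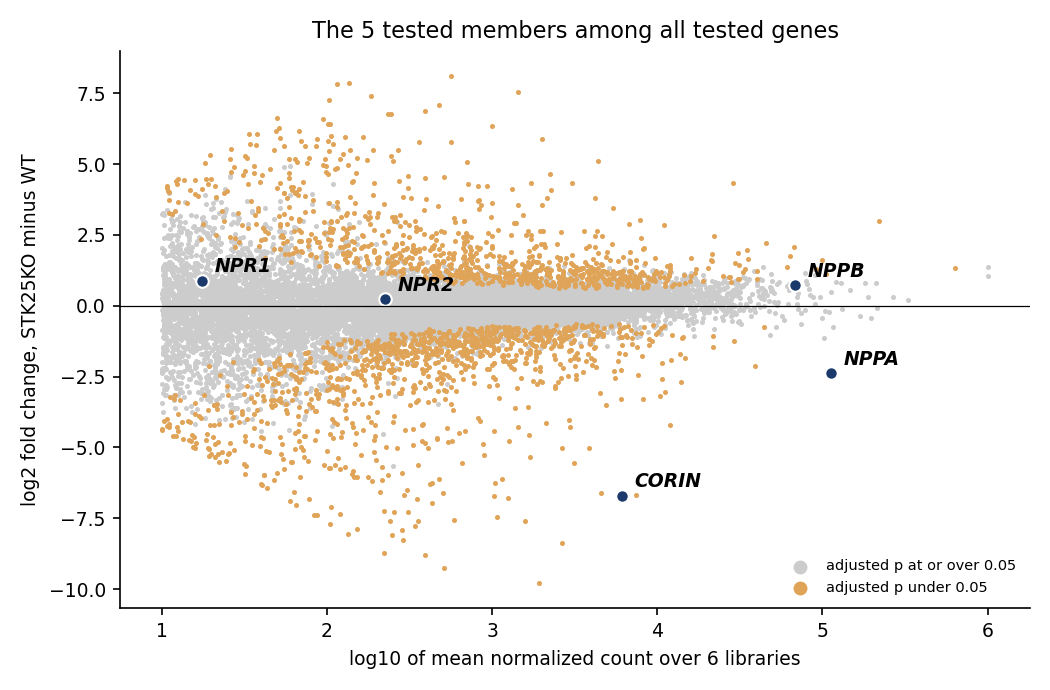
Log2 fold change (knockout minus wild type) against log10 of the mean normalized count for all tested genes (orange, limma adjusted p under 0.05; grey, the rest), with the 5 tested members in dark blue. CORIN lies at -6.70 and NPPA at -2.38, while NPPB, NPR1 and NPR2 lie among grey points.

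The receptors were measured at much lower levels than the peptides. NPR2, the CNP receptor, was the only one with over 100 normalized counts in every library, at 231, 309 and 108 in the wild type and 250, 195 and 260 in the knockout. The genotypes overlapped, and wild-type replicate 3 was the lowest. Its log2 fold change was 0.23 (SE 0.42; 95% confidence interval -0.73 to 1.20; limma adjusted p = 0.775), and it was -0.05 with libraries scaled to equal totals. That scaling moved the median of all genes from 0.01 to -0.27.

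NPR1, the receptor of ANP and BNP, had at most 5 reads in 4 of the 6 libraries. It had 0, 38.1 and 0.638 normalized counts in the wild type and 0, 5.57 and 60.4 in the knockout, which were 0, 50 and 1 reads and 0, 5 and 68 reads. Wild-type replicate 1 and knockout replicate 1 held no read, and a count of 0 allows up to 3 reads, or 4.53 and 3.81 normalized counts. The genotypes overlapped, and 1 library in each supplied nearly all of its reads. The log2 fold change of 0.89 had an SE of 1.88 (limma adjusted p = 0.817) and was -0.11 without wild-type replicate 1. The spread between libraries of 1 genotype was larger than the difference, and libraries of similar depth, such as wild-type replicates 2 and 3, held very different numbers of NPR1 reads.

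NPR3, the clearance receptor, had 3.02, 3.05 and 1.91 normalized counts in the wild type and 6.36, 18.9 and 7.11 in the knockout. These were 2, 4 and 3 reads against 5, 17 and 8, and the knockout libraries were all higher. With no filter on low values the log2 fold change was 1.55 (SE 0.72, limma adjusted p = 0.281). NPPC, the CNP precursor, had 7.55, 9.90 and 5.74 normalized counts in the wild type and 8.90, 5.57 and 8.0 in the knockout, between 5 and 13 reads per library. The genotypes overlapped, and with no filter the log2 fold change was -0.03 (SE 0.68, limma adjusted p = 0.982). Ratios among receptors could not be resolved: NPR3 to NPR1 and NPR1 to NPR2 overlapped between genotypes (exact two-sided permutation p = 0.7 and 0.8) and changed sign when 1 library was left out.

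Per kilobase the wild-type order was NPPA, NPPB, CORIN at 1206 ± 306, NPR2 at 56.0 ± 26.2, NPPC at 7.22 ± 1.95, NPR1 at 2.58 ± 4.36 and NPR3 at 0.270 ± 0.066 (SD, n = 3 each). In the knockout it was NPPB, NPPA, NPR2 at 60.8 ± 9.03, CORIN at 11.5 ± 3.23, NPPC at 6.99 ± 1.61, NPR1 at 4.40 ± 6.68 and NPR3 at 1.10 ± 0.716 (SD, n = 3 each). CORIN thus passed from the third place to a level under that of NPR2. NPPC and NPR1, and NPR1 and NPR3, overlapped in both genotypes, while the other neighbours in the order did not.

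Genes that process or remove the peptides, together with a ligand of NPR3, formed a list of 8. Of the 5 tested, 1 rose, against 5.97% of all genes tested, and it was that ligand. OSTN, which encodes osteocrin, a ligand of NPR3, had 0, 1.52 and 25.5 normalized counts in the wild type and 164, 70.2 and 94.2 in the knockout. All knockout libraries were above the wild type, where wild-type replicate 3 held nearly all the reads (log2 fold change 4.68, SE 1.15, limma adjusted p = 0.0364). That call was kept in only 1 of 6 fits that left out a library, the one without wild-type replicate 3, and the highest adjusted p was 0.111. edgeR gave an adjusted p of 0.0989. FURIN, which can cut the BNP precursor, had 1759 ± 392 and 1504 ± 249 (SD, n = 3 each; limma adjusted p = 0.629). PCSK6, which activates corin, had 236 ± 88.7 and 88.2 ± 32.5 (SD, n = 3 each; adjusted p = 0.0882 by limma, log2 fold change -1.40), with no overlap. MME (neprilysin) and IDE, which degrade natriuretic peptides, did not pass (limma adjusted p = 0.220 and 0.832).

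Downstream of the receptors, 6 of 17 tested cGMP effectors passed, 2 higher and 4 lower, with a list median of -0.09, against 12.8% of all genes tested. KCNMA1, a potassium channel that cGMP kinase can activate, had 24.2, 19.0 and 23.6 normalized counts in the wild type and 461, 386 and 228 in the knockout (log2 fold change 3.90, SE 0.39, limma adjusted p = 0.00106). PDE5A, a phosphodiesterase specific for cGMP, had 199, 193 and 196 in the wild type and 19.1, 45.7 and 36.4 in the knockout (log2 fold change -2.59, SE 0.42, limma adjusted p = 0.00723). PDE9A, another cGMP phosphodiesterase, went the other way, from 166.7 ± 38.1 to 390 ± 61.8 (SD, n = 3 each; limma adjusted p = 0.0323). PLN, phospholamban, fell from 55599 ± 5281 to 32697 ± 1500 (SD, n = 3 each; limma adjusted p = 0.0459), and ABCC4, a cyclic nucleotide exporter, from 61.3 ± 11.6 to 15.9 ± 4.99 (SD, n = 3 each; limma adjusted p = 0.0399). PDE1C had 63.4, 49.5 and 7.65 normalized counts in the wild type and at most 3 reads in each knockout library (limma adjusted p = 0.0425). KCNMA1 and PDE5A kept their calls without any 1 library. PDE9A and ABCC4 lost theirs in all 6 such fits, PLN in all but the one without knockout replicate 1, and PDE1C without wild-type replicates 1 or 2 or knockout replicates 1 or 3, with adjusted p-values up to 0.0959, 0.159, 0.173 and 0.185 in turn. The cGMP kinases PRKG1 (97.7 ± 46.0 and 75.8 ± 24.3, SD, n = 3 each) and PRKG2 (27.5 ± 22.5 and 46.5 ± 29.5, SD, n = 3 each) overlapped between genotypes.

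Other sources of cGMP are the guanylyl cyclase that nitric oxide activates and further membrane cyclases. Of 5 tested genes of a list of these cyclases and the nitric oxide synthases 2 fell, against 6.79% of all genes tested, and the list median was -1.09. GUCY1A1, an alpha subunit of the cyclase that nitric oxide activates, had 12479, 9211 and 11348 normalized counts in the wild type and 3182, 4437 and 4508 in the knockout (log2 fold change -1.45, SE 0.22, limma adjusted p = 0.00568). GUCY1B1, its beta subunit, had 500 ± 74.9 and 506 ± 133 (SD, n = 3 each; limma adjusted p = 0.996). NOS3, endothelial nitric oxide synthase, fell from 194 ± 36.4 to 46.8 ± 19.6 (SD, n = 3 each; limma adjusted p = 0.0158). Without wild-type replicates 1 or 3 or knockout replicate 3 its adjusted p was over 0.05, up to 0.0767.

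**Figure D4:**
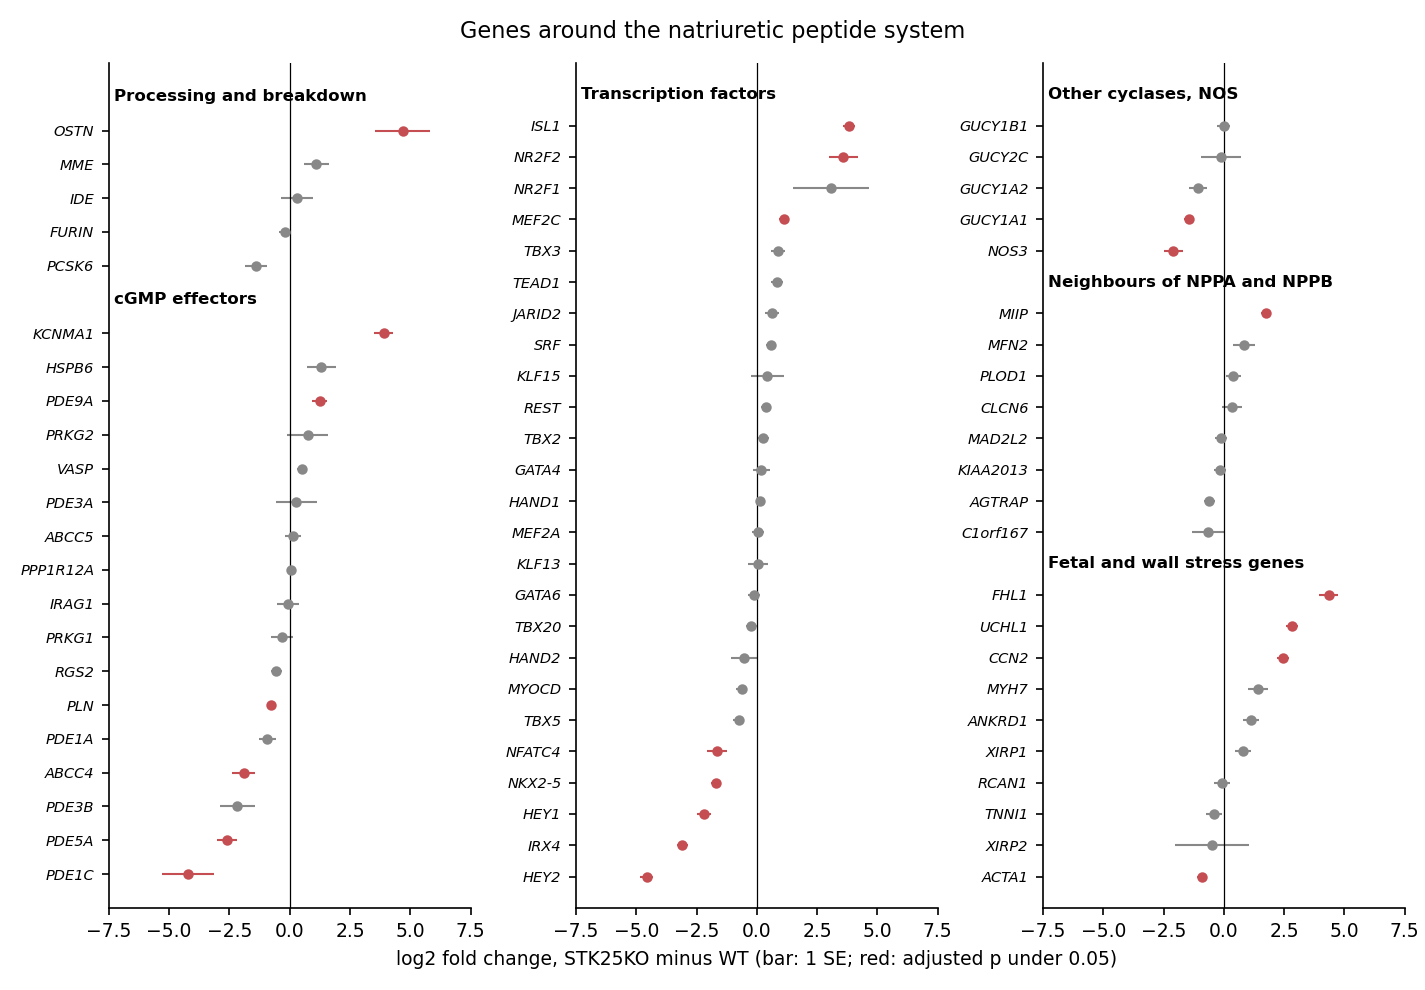
Log2 fold change (knockout minus wild type) with 1 SE for the tested genes, apart from 2 not shown, of 6 lists around the natriuretic peptides, ordered within each list (red, limma adjusted p under 0.05; grey, the rest). Red points lie on both sides of 0 among cGMP effectors and transcription factors, and MIIP is the red point among the neighbours of NPPA and NPPB.

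Transcription factors known to act on NPPA or NPPB moved both ways. Of 26 tested, 4 rose and 5 fell, against 5.97% and 6.79% of all genes tested, and the median of the list was 0.16. HEY2, a ventricular repressor, had 3276, 2872 and 3533 normalized counts in the wild type and 108, 117 and 194 in the knockout (log2 fold change -4.57, limma adjusted p = 0.000177). Its relative HEY1 fell from 4356 ± 479 to 997 ± 342 and the ventricular factor IRX4 from 8050 ± 1214 to 949 ± 192 (SD, n = 3 each; limma adjusted p = 0.00295 and 0.000280). The factors that rose included ISL1, a factor of cardiac progenitors and the sinus node, from 567 ± 187 to 7817 ± 1001, and NR2F2, an atrial factor, from 36.2 ± 28.6 to 407 ± 214 (SD, n = 3 each; limma adjusted p = 0.000225 and 0.00818). These 5 were among the 6 called genes of the list with the largest changes.

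For the factors whose motifs stand in the printed NPPA stretch, the values were as follows, NKX2-5 being named after its values were seen. NKX2-5 had 20429, 23430 and 19414 normalized counts in the wild type and 6718, 5869 and 6745 in the knockout, with no overlap (log2 fold change -1.71, SE 0.18, limma adjusted p = 0.00135). GATA4 had 12867 ± 4255 and 14595 ± 4624 and GATA6 3344 ± 730 and 3102 ± 751 (SD, n = 3 each; limma adjusted p = 0.791 and 0.835), and both overlapped between genotypes. Whether these factors bind there in these cells was not measured.

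The genes beside NPPA and NPPB on chromosome 1 were measured in the same libraries. Of 9 tested neighbours 1 rose, a share near the 12.8% of all genes called, and the median was 0.33. MIIP, which lies from 12019466 to 12032045, rose from 767 ± 116 to 2563 ± 369 (SD, n = 3 each; adjusted p = 0.00232 by limma, log2 fold change 1.74, SE 0.21). CLCN6, on one side of the pair, differed by 0.33 on the log2 scale (adjusted p = 0.659 by limma), and KIAA2013, PLOD1 and MFN2 on the other side -0.16, 0.38 and 0.84 (limma adjusted p = 0.735, 0.484 and 0.286). AGTRAP had -0.61, MAD2L2 -0.13 and C1orf167 -0.64 (limma adjusted p = 0.122, 0.796 and 0.620). DRAXIN was below the filter, at 7.84 ± 5.11 and 6.62 ± 2.91 (SD, n = 3 each), and NPPA-AS1 was not found by its symbol among the genes listed. The sign for CLCN6, MAD2L2 and KIAA2013 changed when a library was left out.

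NPPA and NPPB are often read together with other genes of the fetal and wall stress programme. Of 10 such genes 3 rose and 1 fell, against 5.97% and 6.79% of all genes tested, with a median of 0.95. CCN2, a matricellular protein, had 7401, 5480 and 7303 normalized counts in the wild type and 26967, 46067 and 39025 in the knockout (log2 fold change 2.45, SE 0.26, limma adjusted p = 0.00126). FHL1 and UCHL1 rose as well, from 313 ± 165 to 5793 ± 728 and from 2638 ± 408 to 19259 ± 5946 (SD, n = 3 each; limma adjusted p = 0.000572 and 0.000656). ACTA1, skeletal alpha-actin, fell from 13176 ± 2588 to 6952 ± 699 (SD, n = 3 each; limma adjusted p = 0.0317), a call lost without wild-type replicates 1 or 3 or knockout replicates 2 or 3, up to an adjusted p of 0.148. Actin genes are alike in sequence, so its value is uncertain where reads were shared among them. ANKRD1, a stretch-responsive gene, had 27581, 34006 and 27174 in the wild type and 104012, 43602 and 57157 in the knockout. As for NPPB, its knockout libraries were all higher, replicate 1 most of all, and the change did not pass (log2 fold change 1.12, SE 0.34, limma adjusted p = 0.0704).

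The genes with the profiles most like those of the members were sought among 13032 tested genes with a mean of at least 50, by the root mean square difference of log2 profiles over the 6 libraries, each centred on its own mean. For NPPA these were S100A4 (0.144), MDP1 (0.149) and PGM5 (0.161), against a median of 1.33 for all genes compared. For CORIN they were WNT2 (0.295), ADAM22 (0.384) and ADAMTS19 (0.429), against a median of 3.39. WNT2, a signalling ligand, went from 2070 ± 380 to 26.2 ± 4.81 normalized counts, ADAM22 from 126 ± 45.0 to 0.372 ± 0.643 and ADAMTS19 from 130 ± 22.1 to 0 (SD, n = 3 each). For NPPB they were RAB5C (0.0635), LMOD1 (0.0648) and ERVK3-1 (0.0848), against a median of 0.656. For NPR2 they were C8orf44 (0.165), ARHGEF33 (0.179) and ZNF837 (0.192), against 0.662. The closest to NPR1 were CCDC85A (1.60), DOC2A (1.79) and RAI2 (1.79), against 2.47, so its profile had no close match. The points compared were the same 6 libraries of 2 genotypes for every gene, so genes with a similar difference between genotypes rank close together.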

How the data were processed

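RNA sequencing of 6 libraries, 3 wild type and 3 STK25 knockout, was deposited by the authors as 1 table of normalized counts, a signal equal to reads divided by 1 factor per library. Per the submitters' processing notes, bcl2fastq 2.19, kallisto 0.44.0, DESeq2 1.28.1 and the build GRCh38 were used; annotation and strand are not given in the sources used here. Per the labels' protocols, RNA came from a Qiagen RNeasy kit and libraries from Clontech Ultra Low v4 cDNA and NexteraXT. In every library 100% of values were whole multiples of 1 step, to within 0.01 of a step. These multiples are called reads here, but kallisto estimates counts, so they may be rounded estimates. Depth ranged from 22443904 to 53224112 reads per library; floors of 3 reads cover counting error only. All columns matched a sample, and 0 were left unused. Replicates are biological per the labels, and chi-square per degree of freedom between replicates ran from 20.1 to 388, so no pair agreed within sampling noise. That does not show that the libraries came from separate cultures.

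Genes whose mean reached 10 were tested by limma 3.58.1 (R 4.3.3) on the log2(value + 1) scale, which understates changes of low genes (lmFit, eBayes with trend, no covariate, Benjamini-Hochberg adjustment over all genes tested, threshold 0.05). edgeR 4.0.16 and DESeq2 1.42.0 on recovered reads were alternatives, as were pseudocounts 0.1 and 10, a filter mean of 50, an unfiltered table, 3 other scalings, the replicate number as a block, no trend and leaving out each library. Leaving out both libraries that stood apart, and taking out trends over length and GC content library by library (97.5% of tested genes had a length), were added after the data were seen. Fits were tested on simulated data. There limma recovered 90 of 100 genes changed by 3 on the log2 scale and 47 of 100 changed by 1.5, with 6 false calls. DESeq2 recovered 93 and 54 with 35 false calls, and edgeR 92 and 52 with 6. A gene that was not called may thus still have changed. Ratios were compared by exact permutation. Positions, lengths and transcripts came from GENCODE 29 and promoter windows from RefSeq, matched by symbol. Python 3.11.15 with matplotlib 3.10.9 drew the figures.

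The members and lists were chosen with earlier results of these data known. Named are the members, STK25, up to 6 genes per list with an adjusted p under 0.05 and the largest change, all genes beside NPPA and NPPB, and the 3 most similar profiles per tested member. Other genes are named after their values were seen. Values of 2 of these genes and 1 sequence are not reported here.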

Additional observations from a re-analysis of the deposited data

How the results depend on the processing

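The calls for NPPA and CORIN were kept under all 19 alternatives. Over all genes 1982 were called, 798 with the replicate block, 3210 with DESeq2, 4706 without wild-type replicate 2 and knockout replicate 1 together, and 792 to 2192 with 1 library left out. Of those fits, wild-type replicate 1 gave 792, wild-type replicate 3 gave 911, knockout replicate 3 gave 963 and knockout replicate 2 gave 1270. Equal totals gave 27.4% higher calls in place of 46.8%. Members called numbered 4 without the 2 libraries together, where NPPB (0.51) and NPR1 (3.97, adjusted p = 0.0493 by limma) also passed, and 3 with the length and GC trend removed (NPPB 0.73). Calls over all genes were also more numerous in these 2 fits, at 4706 and 2797, against 1982 in the main fit. The cause was not tested. With 1 library left out, NPR1 ran from -0.11 to 2.53 and NPR2 from -0.20 to 0.56, and NPR2 was -0.046 with equal totals. NPR1 had no value without knockout replicate 3 or with a mean of at least 50. The log2 ratio difference of NPR3 to NPR1 ran from -0.90 to 2.38 (-0.52 without knockout replicate 1, -2.08 without both libraries) and that of NPR1 to NPR2 from -0.80 to 2.15 (-0.46 without wild-type replicate 1). Signs also turned, with 1 library left out, for C8orf44 (-0.12 to 0.38), ARHGEF33 (-0.13 to 0.64), ZNF837 (-0.11 to 0.66), MAD2L2 (-0.28 to 0.058), CLCN6 (-0.012 to 0.69), KIAA2013 (-0.30 to 0.092) and CCDC85A (-1.37 to 1.03). They turned for C8orf44 (-0.12) and ARHGEF33 (-0.039) with equal totals, for MAD2L2 (0.023) and KIAA2013 (0.0034) with the trend removed, for KIAA2013 (0.038) and CCDC85A (1.54) without both libraries, and for CCDC85A with edgeR (0.29) and DESeq2 (0.28). Deviations of same-numbered libraries from their group means had correlations over genes of -0.23, -0.40 and 0.17. The highest of any pair was 0.45, for wild-type replicate 2 and knockout replicate 1, the 2 that stood apart by transcript length. With so few libraries these values cannot show whether same-numbered libraries were prepared together. With the replicate block 8 of the 29 named genes called had an adjusted p over 0.05, and NPPA (0.0368) and CORIN (0.00153) did not. Low read counts limit NPPC and NPR3, and the spread between libraries limits NPR1.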
